A study of Mus musculus with 6 samples.

Results

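The Ly6 family members described here are Ly6a (which encodes Sca-1), Ly6e, Ly6c1, Ly6c2 and Ly6d, taken by symbol from a table of 22475 mouse genes that holds counts for 6 RNA-seq libraries. All 5 were in the table, and 4 of the 5 passed the filter on low counts that left 13217 genes for testing. Ly6c1 did not pass and is described by its counts. The libraries were made from bone marrow cells sorted as Lin-, cKit+ and Sca1+, a gate that collects haematopoietic stem and early progenitor cells. Every mouse carried FLT3-ITD on both alleles, a tandem duplication inside the FLT3 receptor gene that leaves this tyrosine kinase switched on. The control group (FLT3-ITD) was wild type for the microRNA miR-155, and the other group (FLT3-ITD miR-155-/-, here KO) lacked it, so every comparison is of miR-155 loss on a FLT3-ITD background, and no library of mice with normal FLT3 was analysed here. Each group had 3 libraries, and each library combined RNA of 3 mice, so p-values reflect how much such pools differ. The sources used here do not state age, sex or strain of the mice.

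Ly6 proteins are small, cysteine-rich proteins of the cell surface that are held in the membrane by a glycosylphosphatidylinositol (GPI) anchor. Sca-1 is the classic marker for sorting mouse stem and multipotent progenitor cells, and interferon raises Ly6a and Ly6e in blood cells. Ly6C, encoded by Ly6c1 and Ly6c2, is used to mark monocytes, some T cells, plasma cells and endothelium, and Ly6D marks early lymphoid progenitors that are set to make B cells. miR-155 represses messenger RNAs that carry matches to its seed, mostly in the 3' UTR.

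The deleted microRNA is shown first, since matches to its seed are the usual, though not the only, sites through which it acts. The mature strand (RefSeq, GRCm38.p6, chr16:84714143-84714165, plus strand) is printed with the seed, bases 2 to 8, in capitals.
mmu-miR-155-5p: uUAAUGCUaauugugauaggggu
The longest annotated 3' UTRs of the 5 Ly6 genes, from 300 bases in Ly6d to 1192 in Ly6e, were searched for the 8mer AGCATTAA, the 7mer AGCATTA that pairs with the whole seed, the 7mer GCATTAA that ends in A, and the 6mer common to all of them. No member carried any of these letters. Among 11733 tested genes with an annotated 3' UTR, 3.4% carried the 8mer, 9.8% and 8.9% the respective 7mers, and 22.9% the 6mer. Those genes were not matched to the members by 3' UTR length, which was 385 bases in Ly6a, 389 in Ly6c1 and 382 in Ly6c2. The shares are therefore not an expected value for the members. No match says only that these letters are not in the annotated 3' UTR, and other kinds of site were not searched.

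The promoters of Ly6c1 and Ly6c2 are shown because their coding sequences are nearly the same while their RNA levels lay far apart. The sequence table held promoters (250 bases before to 50 after the start) for 2 of the 5 members, Ly6c1 and Ly6c2. Each gene has 2 windows, and the pair with the most identical bases is given 5' to 3' on the minus strand (RefSeq, GRCm38.p6, chr15:75048788-75049087 for Ly6c1 and chr15:75111922-75112221 for Ly6c2). Lower case marks the 208 of 300 bases that are identical when the windows are aligned, and capitals mark bases that differ or have no partner.
Ly6c1: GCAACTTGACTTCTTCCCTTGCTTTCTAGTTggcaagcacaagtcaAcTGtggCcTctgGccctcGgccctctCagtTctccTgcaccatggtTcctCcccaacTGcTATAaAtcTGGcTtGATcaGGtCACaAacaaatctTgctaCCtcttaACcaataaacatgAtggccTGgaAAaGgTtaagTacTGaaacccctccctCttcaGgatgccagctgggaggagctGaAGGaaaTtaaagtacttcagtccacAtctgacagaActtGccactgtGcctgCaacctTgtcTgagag
Ly6c2: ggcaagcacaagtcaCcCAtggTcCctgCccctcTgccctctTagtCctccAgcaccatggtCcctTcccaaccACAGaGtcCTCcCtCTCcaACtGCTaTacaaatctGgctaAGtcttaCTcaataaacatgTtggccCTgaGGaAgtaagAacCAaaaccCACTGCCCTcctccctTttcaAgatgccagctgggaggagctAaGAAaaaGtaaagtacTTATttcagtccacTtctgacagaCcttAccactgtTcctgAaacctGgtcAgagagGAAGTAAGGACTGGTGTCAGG
Of the aligned base pairs 78.2% were identical, with 58 mismatches and 16 internal gaps. The other 3 pairings of windows had fewer identical bases (124 to 180) and 77.6% to 89.3% identity over the bases that aligned. Neither the interferon-stimulated response element, searched as GAAANNGAAA, nor the gamma-activated site, searched as TTCNNNGAA, was found on either strand in the 4 promoter windows of these genes. Over 32851 promoters of the same length, 3.44% held the former and 8.30% the latter. A motif missing from these windows says nothing about the factor.

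The 5 genes lie within 349.9 kb of chromosome 15 (GRCm38). Ly6d spans 74762056 to 74763620 on the minus strand and has 3 exons. Ly6e spans 74955051 to 74959905 on the plus strand, and Ly6a spans 74994877 to 74998031 on the minus strand. Ly6c1 (75044018 to 75048830) and Ly6c2 (75108158 to 75111970) follow on the minus strand, and these 4 genes have 4 exons each in their principal transcript. All 5 are annotated as protein coding, with coding sequences of 381 (Ly6d) to 408 bases (Ly6e). Ly6c1 and Ly6c2 shared 384 of 393 coding bases (97.7% identity), and Ly6a shared 81.8% with Ly6c1 and 81.6% with Ly6c2. All pairs that include Ly6e or Ly6d had 49.3% to 52.2% identity. This bears on the counts: 36.7% of the 50-base stretches of the Ly6c1 transcript and 33.0% of those of Ly6c2 also occur in another gene's transcript, mostly each other's. For Ly6a 91 of 906 stretches were shared, with Ly6c1, Ly6i and other relatives, and for Ly6e and Ly6d none was. The sources used here do not state how reads with several matches were counted, so the Ly6c1 and Ly6c2 counts, and less so those of Ly6a, are uncertain.

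Libraries held 6843129 to 9443615 counts, and levels are given as CPM, counts relative to a library total that was corrected by edgeR's trimmed mean of M values. A count of 3 was worth 0.325 to 0.459 CPM. Gm26667, the transcript annotated at the miR-155 host locus, had 33, 48 and 36 counts in the control and 4, 14 and 4 in the KO libraries (edgeR adjusted p 0.274, and 0.0377 with the replicate number as a block). Of 15 stem and multipotent progenitor markers all were detected, with summed levels of 1855 to 2675 CPM in the control and 1783 to 2469 CPM in the KO libraries. Immunoglobulin genes took 2.43% to 3.73% of control counts and 0.501% to 1.53% of KO counts, although the gate is lineage negative. These are bulk samples, in which fewer cells of a type and less RNA per cell cannot be told apart.

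Per transcript length, the members lay far apart. On the authors' FPKM scale (fragments scaled by transcript length and library size), the mean over the 6 libraries was 588 for Ly6c2 (range 409 to 812), 347 for Ly6e (291 to 431), 142 for Ly6a (129 to 155), 28.5 for Ly6d (9.14 to 45.5) and 0.871 for Ly6c1 (0.570 to 1.30). The ranges of Ly6c2 and Ly6e overlapped, although Ly6c2 was above Ly6e within each of the 6 libraries, and the other neighbours in this order did not overlap. Together the members took 0.113% to 0.147% of control counts and 0.141% to 0.159% of KO counts.

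**Figure D1:**
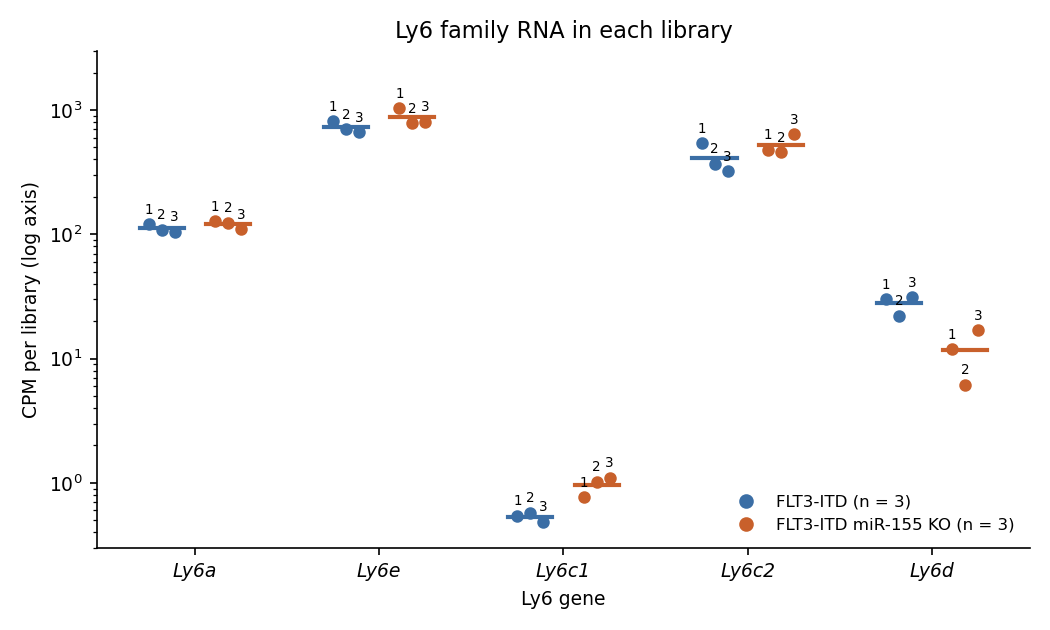
Level of the 5 Ly6 genes in each library, in CPM on a log axis; points are libraries labelled by replicate number, bars are group means, and n = 3 a group. Ly6d has its 3 KO libraries (6.14 to 16.9 CPM) below its 3 control libraries (22.2 to 31.2 CPM), and the groups of Ly6a, Ly6e and Ly6c2 overlap. Ly6c1 lies near 1 CPM or below, with its 3 KO libraries above its 3 control libraries.

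The comparison of the groups asked whether the RNA of these surface proteins differs in FLT3-ITD progenitors that lack miR-155. In edgeR's quasi-likelihood test none of the 4 tested members passed an adjusted p of 0.05, and 0.159% of all 13217 genes did. Ly6d was the 1 member with an unadjusted p under 0.05, which 515 of the 13217 genes had. By limma-voom none was called either, where 2 of all 13217 genes were called higher and 15 lower in the KO. By DESeq2 1 member was called, again Ly6d, against 0.923% of 14191 genes. With the replicate number as a block, which compares libraries of equal number, Ly6d was the 1 member called, against 1.36% of all genes in either direction and 1.04% that were lower in the KO. Since the filter asks for reads in only as many libraries as 1 group holds, these counts are a description of the members.

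Ly6a, the gene of Sca-1 and thus of the protein the cells were sorted on, was counted 1119, 948 and 862 times in the controls and 833, 967 and 799 times in the KO libraries. That is 121, 109 and 105 CPM against 127, 124 and 109.9 CPM. The groups overlapped, and the control and the KO library of number 1 were the highest of their groups. The means were 112 ± 8.53 and 120.3 ± 9.21 CPM (SD, n = 3), a log2 fold change (KO over control) of 0.11 ± 0.09 (SE) with a 95% interval of -0.11 to 0.32 and an adjusted p of 0.9996 in edgeR. The interval leaves out a change of Ly6a RNA as large as that of Ly6d in either direction. Within pairs of equal number the log2 differences were 0.07, 0.19 and 0.06, and the blocked test gave 0.11 with an adjusted p of 0.681. Because selection was on the protein, cells with little Sca-1 were outside the gate, and these values describe RNA among the cells inside it.

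Ly6e, a relative of Sca-1 that interferon induces, was counted 7516, 6145 and 5455 times in the control and 6788, 6127 and 5840 times in the KO libraries. Its levels were 815, 704 and 665 CPM against 1038, 783 and 803 CPM. KO replicate 1 stood highest, and control replicate 1 lay above the other KO libraries, so the groups overlapped in CPM. On the authors' FPKM scale they did not (346, 311 and 291 in the control, 431, 350.3 and 355 in the KO). In CPM, 3.43% of all tested genes had groups without overlap and higher in the KO. That share was not counted in FPKM. The means of 728 ± 77.7 and 875 ± 142 CPM (SD, n = 3) gave a log2 fold change of 0.26 ± 0.14 (SE; 95% interval -0.06 to 0.59; edgeR adjusted p 0.9996). Ly6e was higher in the KO in 3 of 3 pairs, by 0.35, 0.15 and 0.27 on the log2 scale, and did not pass with the block either (0.26 ± 0.08, adjusted p 0.331). Without KO replicate 1 its log2 fold change was 0.128.

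Measured against each other within a library, Ly6a and Ly6e did not separate the groups. The log2 ratio of Ly6a to Ly6e counts was -2.75, -2.70 and -2.66 in the control and -3.03, -2.66 and -2.87 in the KO libraries. The means differed by -0.15 (exact permutation test, two-sided, p = 0.3; adjusted over 3 ratios, 0.45), where the smallest p that 3 against 3 allows is 0.1. The ratio of Ly6a to Kit, the other positive marker of the gate, had log2 means of -1.51 ± 0.45 and -1.30 ± 0.32 (SD, n = 3; difference 0.21, exact permutation p = 0.5, adjusted 0.5). Without KO replicate 1 the differences of these ratios were -0.065 and 0.028. Kit itself had a log2 fold change of -0.12 ± 0.20 and Flt3 one of -0.05 ± 0.13 (SE).

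Since Ly6a and Ly6e respond to interferon, their levels are set beside 40 interferon-inducible genes outside the family. All 40 were tested, 39 had a positive fold change, and their median log2 fold change was 0.50, against 0.00 over all genes. Cxcl10, a chemokine, rose by 1.20 ± 0.13 and Iigp1, an immunity-related GTPase, by 0.93 ± 0.10 (SE; edgeR adjusted p 0.0339 each), and they were the 2 that passed. Of all tested genes, 0.0151% passed and were higher in the KO, and that share consists of Cxcl10 and Iigp1 themselves. With the replicate block 16 of the 40 rose, against 0.318% of all tested genes. Ly6a (0.11) and Ly6e (0.26) were thus below the list's median, without passing the test themselves. The summed level of the list was 3894, 3099 and 2938 CPM in the control and 6239.6, 4339 and 3705 CPM in the KO libraries. Ranked from high to low, the libraries came in the same order for Ly6a as for this sum: KO 1, KO 2, control 1, KO 3, control 2, control 3. For Ly6e, KO 1 was also first and controls 2 and 3 last, while control 1 and KO 3 stood above KO 2. The groups of 15 list genes did not overlap and were higher in the KO, where 3.43% of all tested genes had that pattern. This direction was known from earlier results of these data, and its part in the Ly6a and Ly6e levels was not tested.

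Macrophage RNA also differed between the libraries. The summed level of 13 macrophage markers was 830.3, 67.6 and 92.9 CPM in the control and 590.1, 99.6 and 156 CPM in the KO libraries, so both libraries of number 1 were far above the rest. Of the 11 tested, none passed, and the median log2 fold change was -0.26 without the block and 0.07 with it (C1qa, a complement subunit, -0.64 ± 1.19, and the scavenger receptor Cd163, 0.22 ± 0.50, SE). The libraries of number 1 were also the highest of their groups for Ly6a and Ly6e. Without both of them, the log2 fold change was 0.215 for Ly6e and 0.130 for Ly6a.

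**Figure D2:**
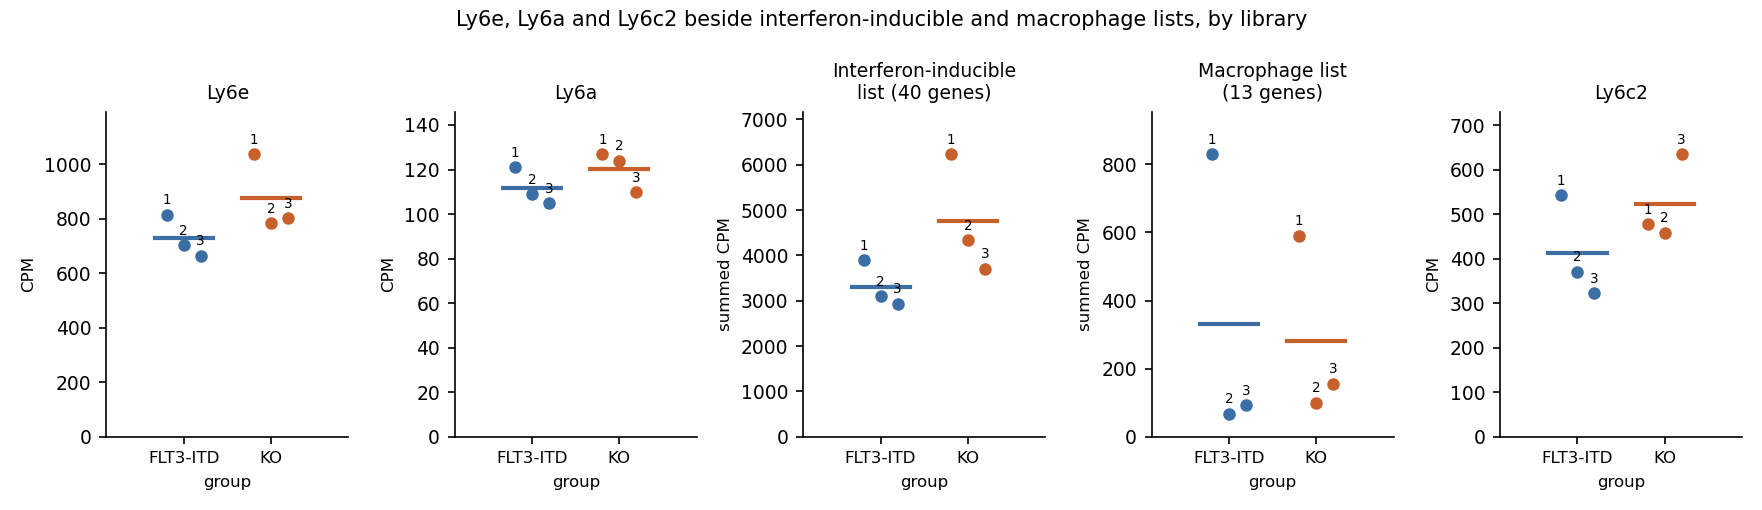
Levels of Ly6e, Ly6a and Ly6c2 in CPM beside the summed CPM of 40 interferon-inducible and 13 macrophage genes; points are libraries labelled by replicate number, bars are group means, n = 3 a group, and each axis starts at 0. The interferon-inducible sum and Ly6a rank the 6 libraries alike, both macrophage sums of number 1 (830.3 and 590.1 CPM) stand above the other 4, and Ly6c2 is highest in KO replicate 3.

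Ly6c2, the abundant Ly6C gene, had 5009, 3234 and 2648 counts in the control and 3124, 3591 and 4624 in the KO libraries. The levels were 543, 371 and 323 CPM against 478, 459 and 636 CPM. KO replicate 3 was the highest and control replicate 1 the next, so the groups overlapped. The means were 412 ± 116 and 524 ± 97.2 CPM (SD, n = 3), with a log2 fold change of 0.35 ± 0.21 (SE; 95% interval -0.15 to 0.85; edgeR adjusted p 0.9996). The pairs went in both directions, with -0.18 for number 1, 0.31 for number 2 and 0.98 for number 3 on the log2 scale. Without both libraries of number 3 the log2 fold change was 0.040, and without both of number 1 it was 0.661 (adjusted p 0.347). Ly6c2 made up 28.7% of all Ly6 member counts in control replicate 3 and 40.6% in KO replicate 3, the lowest and highest shares.

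Ly6c1 was scarce in every library, with 5, 5 and 4 counts in the control and 5, 8 and 8 in the KO libraries. On the authors' FPKM scale the levels were 0.614, 0.676 and 0.570 against 0.848, 1.22 and 1.30. The groups did not overlap on this scale or in CPM, with the KO higher. In CPM, 3.43% of all tested genes had that pattern, and Ly6c1 was not among the tested genes. The 95% Poisson intervals of the counts did overlap, from 1.09 to 10.2 for 4 counts and from 3.45 to 15.8 for 8. These intervals are of single libraries and do not test the difference between the groups. A fit with no filter on low counts gave 0.83 (edgeR adjusted p 0.938), and the authors' deposited table gave 0.85 with an adjusted p of 0.9999. The log2 ratio of Ly6c1 to Ly6c2 counts was -9.56 ± 0.36 in the control and -9.09 ± 0.25 in the KO (SD, n = 3; difference 0.47, exact permutation p = 0.1, the smallest possible, adjusted 0.3). With so much shared sequence, how many of the few Ly6c1 counts came from Ly6c2 transcripts was not tested.

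Markers of cells that carry Ly6C are set beside these values. Of 14 monocyte markers tested none passed, with a median log2 fold change of 0.24 and summed levels of 4617 to 7099 CPM in the control and 5497 to 8709 CPM in the KO libraries. Lyz2, lysozyme of myeloid cells, had 0.23 ± 0.11, and Ms4a6c, a monocyte membrane protein, had 0.51 ± 0.25 (SE). Ms4a6c was the 1 gene of the list that rose with the block (0.54, edgeR adjusted p 0.0430), against 0.318% of all tested genes. The 10 endothelial markers tested had a median of -0.11 and none passed with or without the block. All 13 tested neutrophil markers had a negative fold change, with a median of -0.70, and none passed in either fit. Of these, 9 had groups that did not overlap with the KO lower, against 4.79% of all tested genes. Ngp, a granule protein, had -0.73 ± 0.17 and Retnlg, a resistin-like secreted protein, -0.86 ± 0.21 (SE). Neutrophil sums were 759 to 859 CPM in the control and 434 to 685 CPM in the KO libraries. Ly6g, the neutrophil member of the family, was counted 6, 12 and 4 times against 2, 2 and 2 times and was too low to test.

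Ly6d, which marks lymphoid progenitors on the way to B cells, had the largest fold change of the 4 tested members. It had 277, 194 and 256 counts in the control and 78, 48 and 123 in the KO libraries. The levels were 30.0, 22.2 and 31.2 CPM against 11.9, 6.14 and 16.9 CPM. Every KO library lay below every control library, a pattern that 4.79% of all tested genes had in that direction. The means were 27.8 ± 4.88 and 11.7 ± 5.39 CPM (SD, n = 3), 2.39-fold apart, with a log2 fold change of -1.26 ± 0.33 (SE; 95% interval -2.04 to -0.47).

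Whether Ly6d passed the threshold depended on the test. Its edgeR adjusted p was 0.518 without a block, where its unadjusted p ranked 167 among 13217 genes. With the replicate block Ly6d fell by 1.31 ± 0.18 (SE) with an edgeR adjusted p of 0.0235, and the pairs of equal number gave -1.33, -1.86 and -0.88 on the log2 scale. Residual degrees of freedom numbered 2 in the blocked fit and 4 in the other. The authors' deposited table gave -1.26 with an adjusted p of 0.0360, in a comparison that called 0.639% of 16577 genes in either direction and 0.597% lower in the KO. DESeq2 on the same counts gave an adjusted p of 0.0226 and called 0.923% of 14191 genes. In the authors' table the other 4 members each had an adjusted p of 0.9999.

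The size of the Ly6d difference varied with the libraries while its direction did not. Leaving out 1 library at a time, the log2 fold change ran from -1.632 without KO replicate 3 to -0.950 without KO replicate 2, and none of these fits called it (edgeR adjusted p from 0.195). With the block it still passed without both libraries of number 1 (-1.293, adjusted p 0.0303) or of number 3 (-1.562, adjusted p 3.8e-04), and did not without both of number 2 (-1.105, adjusted p 0.0917). These last fits were added after the data were seen and leave 2 pairs each.

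**Figure D3:**
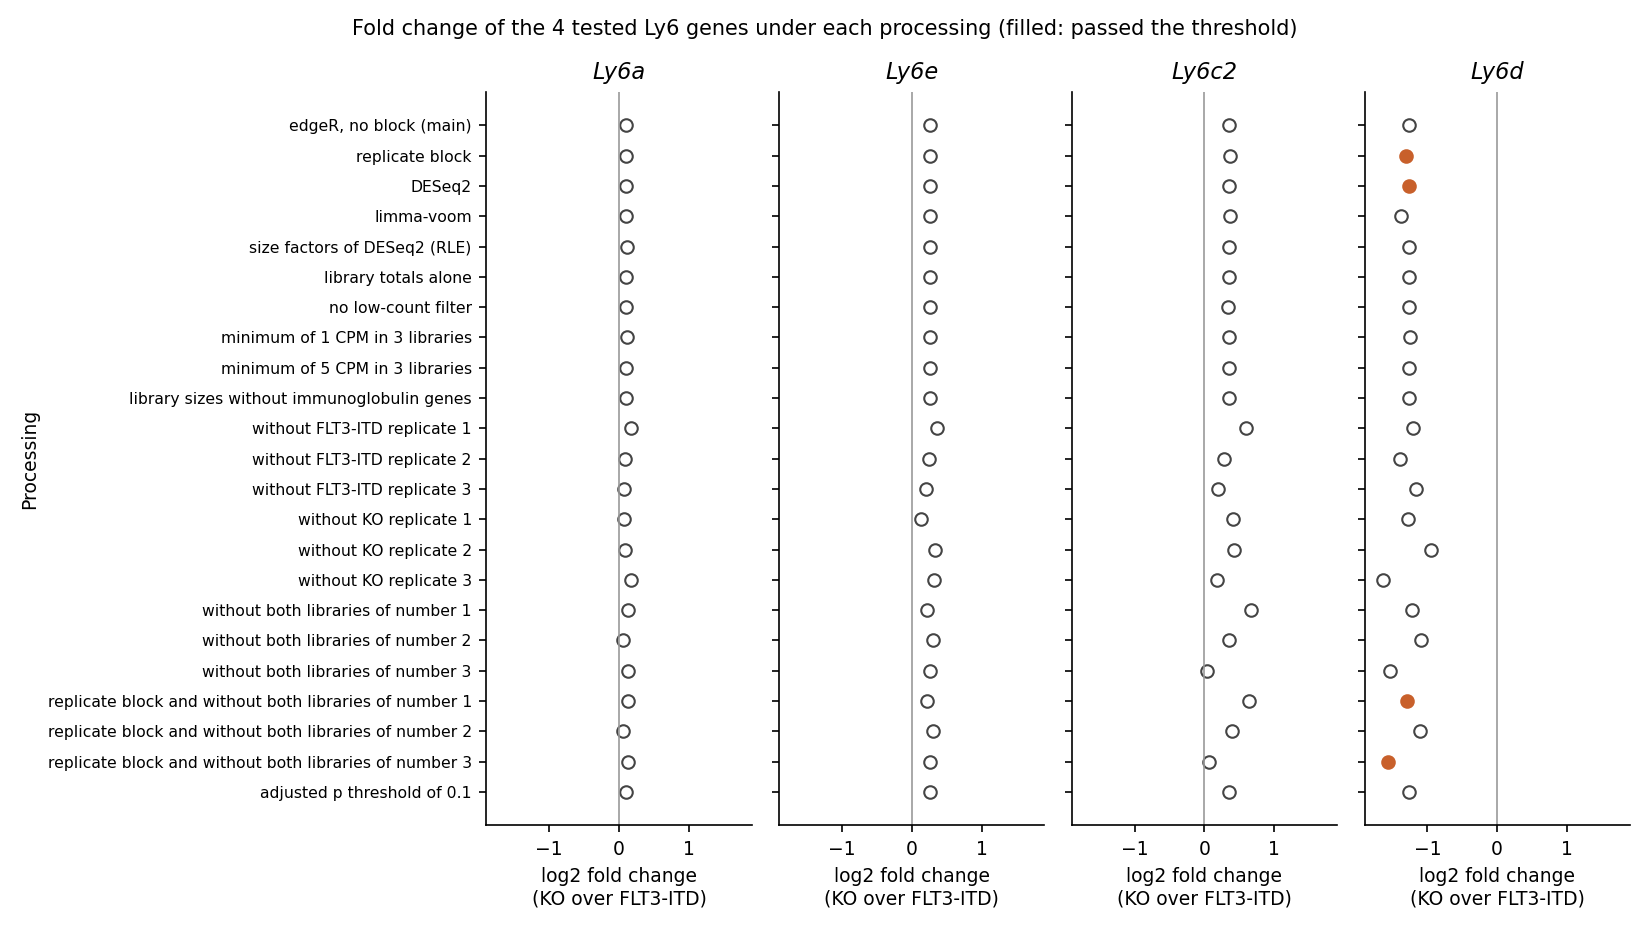
log2 fold change (KO over FLT3-ITD control) of the 4 tested Ly6 genes under each processing; every dot is 1 fit, filled dots passed the threshold of that fit, and the vertical line is 0. Ly6d is below 0 in every fit, from -1.632 to -0.950, and is filled with the replicate block, with DESeq2 and in 2 of the 3 blocked fits without 1 number, while Ly6a, Ly6e and Ly6c2 are above 0 and open throughout.

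Plasma cell and immunoglobulin RNA moved with Ly6d. All 13 plasma cell markers in the table were tested, 12 had a negative fold change, the median was -1.21, and 10 had groups that did not overlap with the KO lower (4.79% of all genes). None passed without the block (Derl3, an endoplasmic reticulum protein of secretory cells, -1.77 ± 0.25 with adjusted p 0.0678, and the immunoglobulin chaperone Mzb1, -1.96 ± 0.33 with 0.140). With the block 9 fell, Derl3 (-1.78, adjusted p 0.00302) and Mzb1 (-2.02, 0.00317) among them, against 1.04% of all tested genes. The summed level of the list was 4750.4, 3286 and 4712 CPM in the control and 1358, 817 and 1926 CPM in the KO libraries, and no marker was at 0. Igj, the immunoglobulin joining chain, supplied most of it, with 35800, 23128 and 31917 counts against 5541, 3600 and 10181. Immunoglobulin genes took 3.21%, 2.43% and 3.73% of counts in the control and 0.780%, 0.501% and 1.53% in the KO libraries. Ranked from high to low, Ly6d and the immunoglobulin share ordered all 6 libraries alike: control 3, control 1, control 2, KO 3, KO 1, KO 2. In the plasma cell sum only controls 1 and 3 changed places. Their part in the Ly6d difference was not tested.

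Markers of the B cell lineage outside plasma cells were uneven beside Ly6d. Of its 15 measured genes, 8 were tested 3 with a positive and 5 with a negative fold change, and none passed in either fit. The median log2 fold change was -0.33. Cd79a and Cd79b, the signalling chains of the B cell receptor, had -1.63 ± 0.42 (adjusted p 0.473, and 0.0533 with the block) and -0.52 ± 0.19 (SE). Blnk, an adaptor of B cell receptor signalling, had -0.85 ± 0.33 (adjusted p 0.0675 with the block), and Ms4a1, which encodes CD20, had -0.57 ± 0.34 (SE). The other 4 tested genes of the list were nearer to 0. Dntt, the terminal transferase of early lymphoid cells, had 286 ± 103 and 260.2 ± 63.5 CPM (SD, n = 3; log2 fold change -0.14 ± 0.30, SE). Il7r, the interleukin-7 receptor, had 0.05 ± 0.40, Rag2, of the recombinase, 0.11 ± 0.35, and Cd22, a B cell inhibitory receptor, 0.15 ± 0.56. The 7 genes too low to test included the pre-B cell genes Vpreb1 (4, 5 and 4 counts against 0, 5 and 3), Vpreb3 (4, 5 and 5 against 4, 0 and 1) and Igll1 (8, 4 and 8 against 4, 4 and 5). Pax5, the B lineage factor, had 1 count in control replicate 1 and 0 in the other 5 libraries, and Ebf1 had 14, 9 and 8 counts against 8, 6 and 3. Rag1 had 11, 6 and 8 counts against 12, 2 and 11. The list's sum was 276 to 437 CPM in the control and 266 to 365 CPM in the KO libraries.

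**Figure D4:**
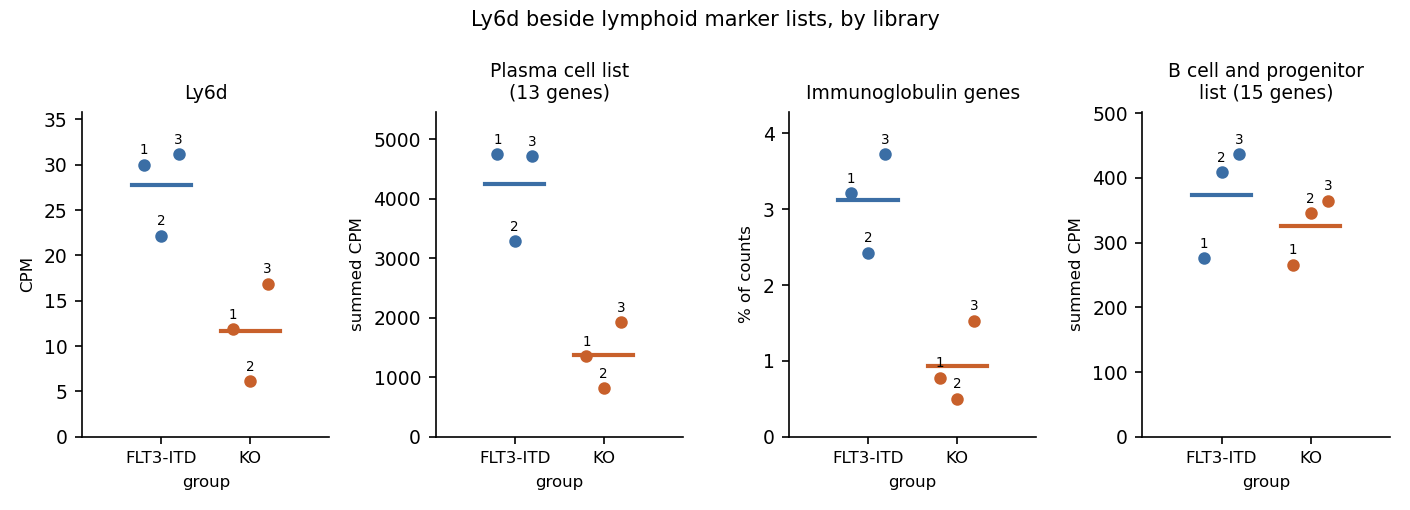
Ly6d (CPM), the summed CPM of 13 plasma cell markers, the percent of counts in immunoglobulin genes and the summed CPM of 15 B cell and B progenitor markers; points are libraries labelled by replicate number, bars are group means, n = 3 a group, and each axis starts at 0. The groups do not overlap in the first 3 panels, and they overlap in the B cell panel (276 to 437 CPM against 266 to 365 CPM).

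The genes whose levels ran most like each member over the 6 libraries were taken from 13099 tested genes with a symbol, by Pearson's r of log2 CPM. The r are descriptions over 6 shared libraries, and with so few points high values are common. For Ly6d, 93 genes had an r above 0.95, led by Khdrbs3 (0.997), the immunoglobulin segment Ighj1 (0.996) and Gm8818 (0.994). Ighj1 had 293, 225 and 300 counts in the control and 83, 55 and 127 in the KO libraries, close to those of Ly6d. For Ly6e the number was 145, led by Selplg (0.997), the selectin ligand of leukocytes, Arl5c (0.996) and Mir5129 (0.993). Ly6a had 40 such genes, led by Orai3 (0.995), Plxnb2 (0.984) and Zfml (0.984), and Ly6c2 had 19, led by 5830415F09Rik (0.995), Pdcd6 (0.987) and Gins2 (0.986). Between members, r was highest for Ly6a with Ly6e (0.82), 0.56 for Ly6e with Ly6c2 and 0.43 for Ly6a with Ly6c2. Ly6d had negative values with all of them, -0.60 with Ly6a, -0.43 with Ly6e and -0.25 with Ly6c2.

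The chromosomal neighbourhood of the members was examined because the 5 genes are clustered. Within 500 kb of them the table held 16 other genes, of which 7 were tested, 5 with a positive and 2 with a negative fold change. None passed with or without the block, and their median log2 fold change was 0.08. The extremes were Arc, the immediate early gene (1.36 ± 0.48, SE, edgeR adjusted p 0.9996), and Ly6k, a testis-enriched Ly6 gene next to Ly6d (-0.94 ± 0.35, adjusted p 0.9996). Ly6k had 24, 24 and 38 counts in the control and 12, 10 and 15 in the KO libraries. Its groups did not overlap either, with the KO lower, a pattern that 4.79% of all tested genes had. Lynx1, the neighbour of Ly6d on its other side, had 0.01 ± 0.21 (SE) and overlapped.

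**Figure D5:**
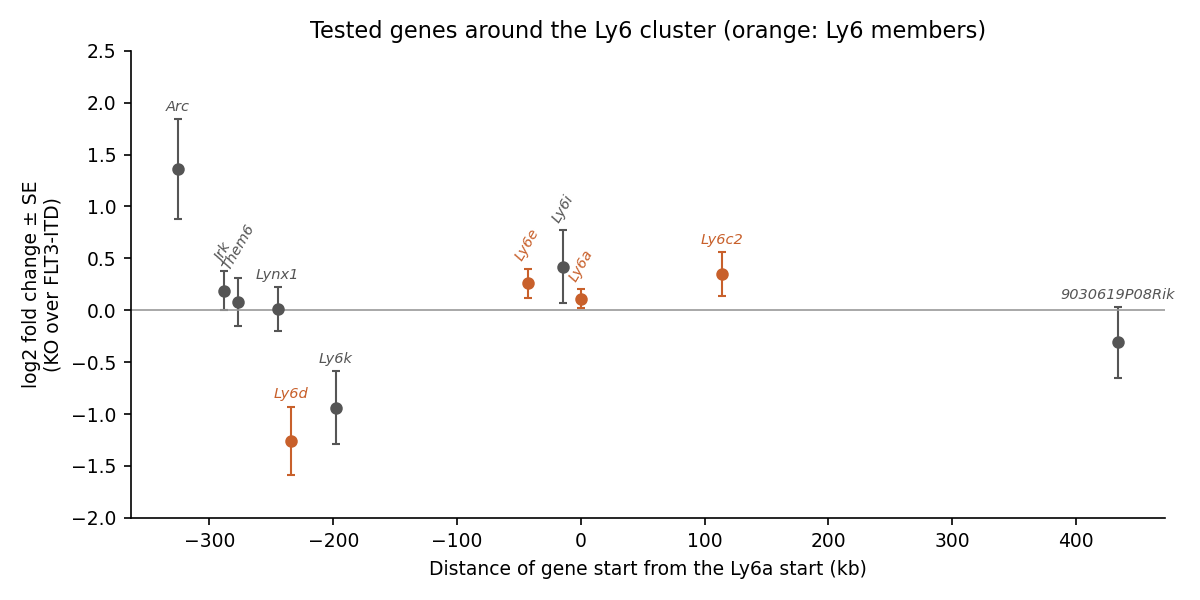
log2 fold change (KO over FLT3-ITD control) with its SE of the tested genes around the Ly6 cluster, against the distance of the gene start from the Ly6a start in kb; orange points are Ly6 members and grey points other genes. Ly6d (-1.26) and the adjacent Ly6k (-0.94) lie lowest, Lynx1 between Them6 and Ly6d is at 0.01, and Ly6e, Ly6i, Ly6a and Ly6c2 lie between 0.11 and 0.42.

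The wider family of Ly6 and uPAR genes had few genes at testable levels. Of 30 listed relatives 17 were found in the table by symbol and 6 were tested, with a median log2 fold change of -0.05. None was called in either fit. Gml2, not found by its symbol, was present by its gene identifier and did not pass the filter. Plaur, the urokinase receptor, was the highest of them, with 10.3 ± 1.27 and 12.2 ± 1.98 CPM (SD, n = 3; log2 fold change 0.25 ± 0.19, SE). Ly6i had 0.42 ± 0.35, Cd59a, an inhibitor of complement lysis, -0.15 ± 0.34, and Lypd6b -0.12 ± 0.51. The anchor these proteins share was examined through 26 tested genes of GPI anchor synthesis and attachment, of which none passed in either fit. Their median log2 fold change was 0.05, with Dpm2, a mannosyl donor subunit, at -0.21 ± 0.10 and Pigg, an ethanolamine phosphate transferase, at -0.19 ± 0.13 (SE).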

How the data were processed

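RNA was sequenced from 6 pools of sorted bone marrow cells, 3 FLT3-ITD and 3 FLT3-ITD miR-155-/-. The authors deposited whole-number gene counts with no normalization, FPKM values, and their own comparison with a log2 fold change and an adjusted p-value per gene. The deposited FPKM are a rescaling of the counts by gene and by library (the ratio varied by 0.0% over 8503 genes), so only counts were tested. The submitters' processing notes name the mm10 build, Novoalign 2.08.01 and DESeq2 1.10.1. Counter, gene models and strand setting are not given in the sources used here.

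Of 22475 gene identifiers 21966 matched GENCODE M21 (GRCm38), which gave coordinates, transcripts and 3' UTRs. Motifs, seed matches and identities were computed with Biopython 1.88. Counts were tested with edgeR 4.0.16 in R 4.3.3: TMM, filterByExpr (minimum count 10, minimum total 15), a quasi-likelihood F test (two-sided) with group as the single term, and Benjamini-Hochberg adjustment over all 13217 genes (threshold 0.05). The SE was derived from the F statistic. The scripts were checked on simulated data. Alternatives were a replicate block, DESeq2 1.42.0, limma 3.58.1 (voom), other scalings and filters, and leaving out libraries. CPM for likeness had a prior count of 2. Ratios of counts were compared with exact permutation tests. Intervals on counts cover counting error only.

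Titles number the replicates 1 to 3 in each group; what a number shares is not stated. Deviations from group means correlated between libraries of equal number by r = 0.57, 0.53 and 0.22 over 13217 genes. All exceed 0.1, the limit for treating the numbers as pairs, so the pairing rests on the data. Control replicate 3 and KO replicate 2, of unequal number, also exceeded this limit, at 0.13. The other unequal pairs had -0.51 to 0.04. The blocked p-values therefore depend on a pairing that was read from the same counts.

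The members and lists were chosen with earlier results of these data known. All 5 members are named, with the up to 6 tested relatives of highest CPM, the 3 genes most like each tested member, the 2 tested genes with the smallest p of each list described, Kit and Flt3, and the 2 largest fold changes within 500 kb. Gm26667, Igj, Ly6g, the other B cell list genes and Bst2 fall outside this rule and were chosen with their values known.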

Additional observations from a re-analysis of the deposited data

How the results depend on the processing

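Ly6a, Ly6e and Ly6c2 kept a positive fold change and did not pass in any of the 22 alternatives run for each. Ly6d kept its sign in all 22 and passed in 4: with the replicate block (-1.311), in DESeq2 (-1.258), and in blocked fits without both libraries of number 1 (-1.293) or of number 3 (-1.562). In each of these 4 the number of members called was 1 in place of 0, and the cause was not tested. Over all genes, 21 were called without the block, 180 with it and 131 by DESeq2. With no low-count filter 4 were higher and 93 lower, and 0 were called without FLT3-ITD replicate 1 or replicate 3. Leaving out single libraries gave 0.069 to 0.174 for Ly6a, 0.128 to 0.356 for Ly6e, 0.187 to 0.598 for Ly6c2 and -1.632 to -0.950 for Ly6d (log2). The count ratios kept their sign as pairs by replicate block, from FPKM and without 1 library, where the group difference ran from -0.246 to -0.065 for Ly6a to Ly6e, 0.028 to 0.472 for Ly6a to Kit and 0.263 to 0.579 for Ly6c1 to Ly6c2. The planned minimum of 1 CPM in 3 libraries kept 13594 genes, more than the 13217 tested, so a minimum of 5 CPM was added after the data were seen, as were the blocked fits without 1 number. Depth limits Ly6c1 most, at 14 counts in the control and 21 in the KO libraries together.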

Other observations

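Markers of other cells that could share the gate with Ly6-expressing cells were also read. Of 14 tested T and NK cell markers 11 had a negative fold change, with a median log2 fold change of -0.31, and none passed without the block. Ctla4, a checkpoint receptor, had -1.56 ± 0.32 (SE), and Cd28, a costimulatory receptor that plasma cells also carry, had -1.14 ± 0.26. With the block both fell (edgeR adjusted p 0.0368 and 0.0153), against 1.04% of all tested genes. Both had KO libraries that were all below the control libraries, as did Ly6d and 4.79% of all tested genes. Plasmacytoid dendritic cell markers (10 tested) had a median of 0.11, with Tcf4 at -0.17 ± 0.08 and Pacsin1 at 0.72 ± 0.43 (SE). The 1 gene among them that rose with the block was Bst2, which is also interferon-inducible (0.42, edgeR adjusted p 0.0475). Bst2 was named after its value was seen, and 0.318% of all tested genes rose in that fit. The 14 stem and multipotent progenitor markers tested had a median of -0.18, with Cd48 at 0.12 ± 0.08 and Fgd5 at -0.62 ± 0.44, and the 6 erythroid markers tested had a median of -0.36 (Ermap, -0.80 ± 0.39, and Klf1, -0.35 ± 0.37, SE). None of these last lists had a gene that passed in either fit. In the endothelial list, which is relevant to Ly6a and Ly6c1 because vessels express both, Pecam1 had 0.08 ± 0.08 and Cdh5 0.41 ± 0.41 (SE), and the sums were 237 to 285 CPM in the control and 209 to 286 CPM in the KO libraries.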
